A study of Arabidopsis thaliana with 16 samples.

Results

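The genes described here are 39 nuclear genes of Arabidopsis thaliana that encode proteins of the plastid ribosome, chosen by a fixed list of gene identifiers among the 28598 genes of the count table. Of these, 24 encode proteins of the large subunit (PRPL and RPL12 genes), 9 encode proteins of the small subunit (PRPS genes) and 6 encode plastid-specific ribosomal proteins (PSRP genes). Their levels were measured by RNAseq in suspended cells of a single line, Col-0 (Col0 in the labels), that was prepared from leaves and grown with sucrose and the auxin analogue 2,4-D. The 4 dark-grown libraries (Dark-RNA1 to Dark-RNA4) came from cultures in foil-covered flasks, adapted to darkness for 2 weeks and sampled 16 h after a subculture. The 4 light-grown libraries (Light-RNA1 to Light-RNA4) came from the same line in constant light. The labels give 16 h for every library, whereas the protocol also names 5 days after subculture as a sampling time of light-grown cells, without saying for which samples. The study's text speaks of replicate cultures, 4 for each growth condition, whereas its methods and the labels' protocol give cultures in duplicate. Which libraries share a culture is not stated, so the spread between libraries may be partly technical and p-values measure this spread alone.

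Plastids are descended from cyanobacteria and keep ribosomes of the bacterial type. The ribosomal RNAs and part of the proteins are encoded in the plastid genome, and the remaining proteins, including those described here, are made in the cytosol and imported. In leaves these ribosomes translate the plastid-encoded subunits of the photosystems and of Rubisco, and many of their proteins are required for embryo or chloroplast development. In bulk RNA, fewer cells of a type and less RNA per cell cannot be told apart.

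All 39 genes passed edgeR's filter on low counts and all had a lower fitted level in dark-grown than in light-grown cells. Of the 39, 33 were lower in the dark at an adjusted p-value under 0.05 (edgeR's quasi-likelihood test, Benjamini-Hochberg adjustment over 19129 genes) and 0 were higher, and DESeq2 gave the same numbers. At an unadjusted p under 0.05 in edgeR the number was 36, all of them lower, and 4819 of the 19129 genes passed this threshold in either direction. Over all genes tested, edgeR called 6.31% lower and 3.69% higher in the dark, and DESeq2 called 1776 lower and 1421 higher of the 19129 genes. The median log2 fold change, dark over light, was -0.82 over the 39 genes and 0.00388 over all genes tested. Levels are given as CPM, counts per 1000000 counts of a library after TMM normalisation, and on this scale the median gene stood in dark-grown cells at 56.6% of its light-grown level. In 30 of the 39 genes the groups did not overlap, with all dark-grown libraries lower, and the same was true of 10.1% of all genes tested.

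Apart from PSRP3/1, which fell most, the log2 fold changes lay between -1.35 in PRPL15 and -0.30 in PSRP1. Summed over the 39 genes, the level was 662, 727, 657 and 665 CPM in Dark-RNA1 to Dark-RNA4, against 1311, 1406, 1456 and 976 CPM in Light-RNA1 to Light-RNA4. The dark-grown libraries were close to each other and all lay below the lowest light-grown library. The mean of the sum was 678 ± 33.0 CPM in dark-grown and 1287 ± 216 CPM in light-grown cells (SD, n = 4 each), and the dark-grown mean was 52.7% of the light-grown mean.

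Light-RNA4 stood apart from the other light-grown libraries. It was the lowest of the 4 light-grown libraries in all 39 genes, and in 9 of them it lay below at least 1 dark-grown library. It also had the lowest total of counts, 18363149, where the other 7 libraries had between 24155505 and 37813411. In 43 nuclear photosynthesis genes, whose light-grown level marks the growth condition, the summed level was 125, 236, 87.2 and 129 CPM in Dark-RNA1 to Dark-RNA4, against 2541, 2588, 2668 and 1759 CPM in Light-RNA1 to Light-RNA4. Light-RNA4 was thus low in these genes too, but far above the dark-grown libraries, and the part of either measure in the results was not tested. Without Light-RNA4, 37 of the 39 genes were called lower in the dark and the median log2 fold change was -0.96. Without Light-RNA3 the count was 23, without Dark-RNA1 it was 27, and without Dark-RNA3, Dark-RNA4, Light-RNA1 or Light-RNA2 it was 25. Without Dark-RNA2, which was the highest dark-grown library in 15 of the 39 genes, the count was 34. Calls over all genes tested (19312 to 19409 in these fits) changed too, from 1207 lower with every library. They were 1547 without Light-RNA4, 1669 without Dark-RNA2, 1314 without Dark-RNA1 and 689 without Light-RNA3. Without Dark-RNA3, Dark-RNA4, Light-RNA1 or Light-RNA2 they were 761, 846, 810 and 796.

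**Figure D1:**
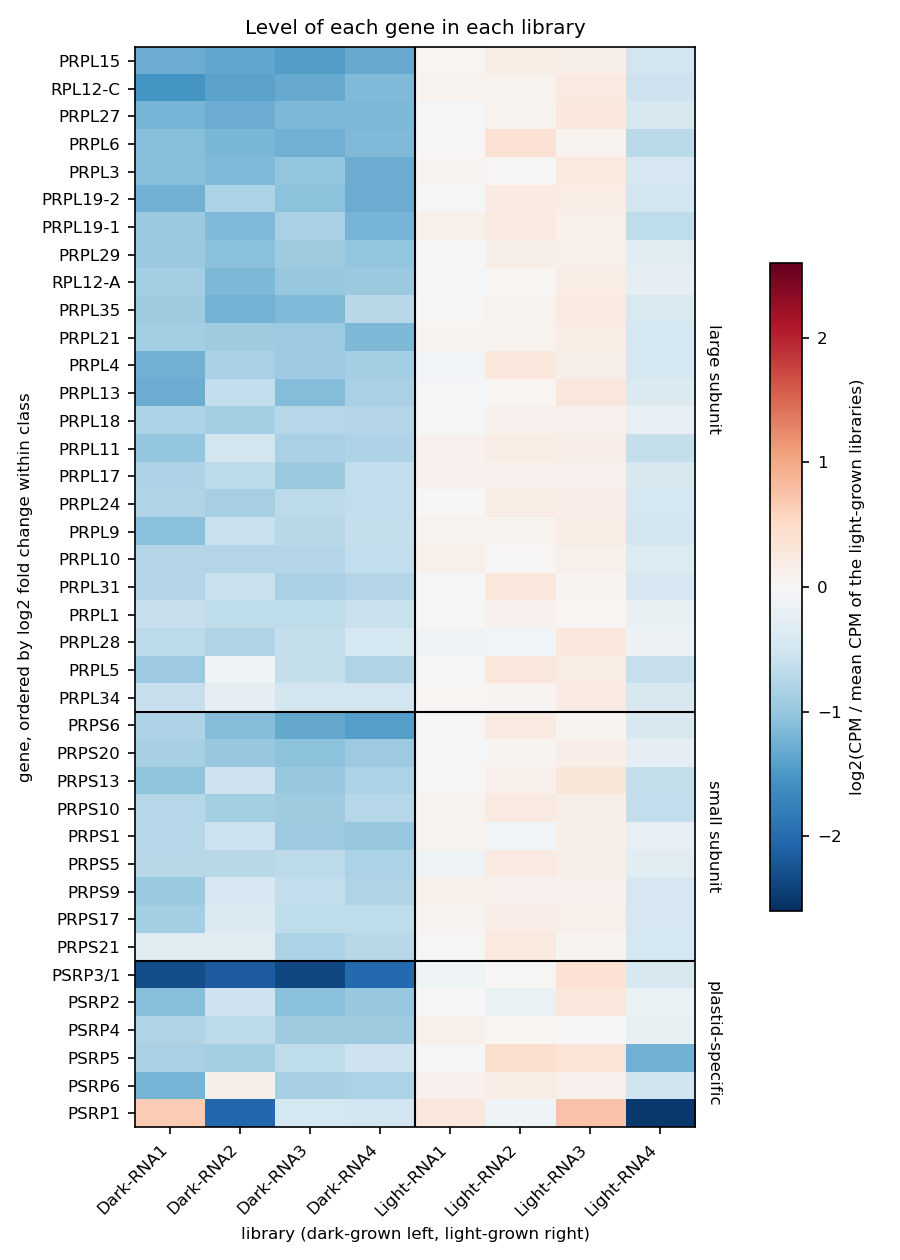
Level of each of the 39 genes (rows) in each library (columns, dark-grown left and light-grown right), as log2 of the CPM over the mean CPM of the light-grown libraries. Blue marks a level below the light-grown mean and red a level above it. The dark-grown columns are blue in nearly every row, Light-RNA4 is pale blue in most rows, and PSRP1 is the row in which libraries of both groups vary most.

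Markers of differentiated tissue, which a cell suspension should lack, were at or near 0 with few exceptions. Among 11 markers of differentiated tissue, GL1 (trichomes) and WUS (shoot meristem) were at 0 in every library, and 7 others were too low to be tested, at no more than 0.467 CPM in any library. The remaining 2 were COBL9 (root hairs), at 7.08 ± 2.65 CPM in dark-grown and 5.13 ± 0.211 CPM in light-grown cells (SD, n = 4 each), and RBCS1A, a Rubisco gene of green cells, at 4.28 ± 3.31 CPM in dark-grown and 291 ± 75.5 CPM in light-grown cells (SD, n = 4 each).

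Since the data show most of these genes changing in 1 direction, their promoters were searched for known motifs. The windows searched ran from 250 bases before to 50 bases after the annotated start of each gene in TAIR10.1, the RefSeq build, and both strands were read. The site II element (TGGGCC or TGGGCT) is common before genes of ribosomes and of dividing cells, and the I-box (GATAAG) was described in promoters of light-regulated genes. Site II was found in 19 of the 39 promoters (48.7%), against 21.7% of 27443 promoters, and the I-box in 19 (48.7%), against 14.6%. With only the bases before the start, site II was found in 14 (35.9%, against 19.2%) and the I-box in 10 (25.6%, against 12.3%). Site II was present in 8 of 9 small-subunit promoters, 9 of 24 large-subunit promoters and 2 of 6 plastid-specific promoters. The I-box was present in 3 of 9, 11 of 24 and 5 of 6 of these promoters. These counts by class are for the whole window and change with the bases before the start alone. There, the I-box was found only in PRPS1, PRPS17, PRPS20, PRPL5, PRPL15, PRPL27, PRPL29, PSRP1, PSRP4 and PSRP6. In the large subunit, site II lay only after the start in PRPL11, PRPL17 and PRPL24. In the whole window, both motifs were found in 8 promoters and neither in 9, among them that of PSRP3/1. The telo box was in 5 promoters (12.8%, against 6.22%), the G-box (CACGTG) in 4 (10.3%, against 7.68%) and a TATA box (TATAAA) in 20 (51.3%, against 52.1%). In PRPL19-2 a pair of site II matches overlapped each other on opposite strands. A match describes the letters only.

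Windows of 30 bases are shown for site II in the 6 small-subunit genes with a window wholly before the start and in the pair of L19 genes. Where a gene has several matches, 1 of the form TGGGCC that begins less than 100 bases before the start was chosen. The capitals mark that match, written as GGCCCA where it lies on the other strand, and each window is printed along the strand of its gene.
PRPS5: aagaaacttcatTGGGCCacaaagagggag
PRPS6: gggcctttaacaGGCCCAataacctaaaaa
PRPS9: aatgggctctaaTGGGCCgattcaataagt
PRPS10: aactatacaattTGGGCCtaatgggtattc
PRPS13: tagtccactagtTGGGCCgtgttatacaat
PRPS17: cttttaagattaGGCCCAgtttattgtaaa
PRPL19-1: atcaattgaataTGGGCCtaaatgtctagg
PRPL19-2: tgatatactaaaGGCCCAcaataacaaacg
The windows lie at chr2:14302561-14302590 (reverse), chr1:23956308-23956337 (reverse), chr1:28159342-28159371 (reverse), chr3:4221725-4221754 (reverse), chr5:4618990-4619019 (reverse), chr1:30042019-30042048 (reverse), chr5:19166163-19166192 (reverse) and chr4:9780187-9780216 (forward), in the order shown, and the strand is in brackets. The PRPS9 window also holds another site II match, tgggct, left in lower case. Matches that are not shown lie before the start in most of these genes, as far as position -231 in PRPL19-1, -165 in PRPL19-2, -121 in PRPS10 and -102 in PRPS5. Site II lies only across or after the start in PRPS20 and PRPS21, and PRPS1 has none.

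I-box windows are shown for the 4 genes with the strongest fall among those with a window wholly before the start, and for PSRP6, which was not called. The capitals mark the match, written as CTTATC where it lies on the other strand.
PRPL15: ttcagacatgagCTTATCtgaaaacccact
PRPL27: acgtgtactcacCTTATCttacattatttg
PRPL29: attGATAAGttgtaaatatcagaaaaaggt
PRPS20: ctctggctgttcGATAAGtaaactttagtt
PSRP6: gattcaaaagacCTTATCtcgtagtcactt
They lie at chr3:9492771-9492800 (reverse), chr5:16410702-16410731 (forward), chr5:26060915-26060944 (forward), chr3:5115861-5115890 (forward) and chr5:5907395-5907424 (forward). The median log2 fold change was -0.91 over the 19 genes with an I-box and -0.79 over the 20 without, and it was -0.82 over the 19 genes with site II and -0.88 over the 20 without.

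In the large subunit, 22 of 24 genes were lower in the dark, with a median log2 fold change of -0.96. PRPL15 (chr3:9491055-9492655, reverse strand), whose bacterial counterpart joins the subunit during its assembly, had 21.9, 20.9, 19.4 and 21.6 CPM in Dark-RNA1 to Dark-RNA4, against 55.6, 60.9, 59.0 and 37.8 CPM in Light-RNA1 to Light-RNA4. Every dark-grown library was below every light-grown one, and the log2 fold change was -1.35 (standard error, SE, 0.15, edgeR adjusted p = 0.00105). PRPL29, whose bacterial counterpart sits at the exit of the protein tunnel, had 68.0, 63.2, 69.9 and 65.6 CPM in Dark-RNA1 to Dark-RNA4, against 131, 147, 147 and 109 CPM in Light-RNA1 to Light-RNA4. Again the groups did not overlap, and the log2 fold change was -0.9998 (SE 0.11).

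The genes for proteins that in bacteria lie near the active centre or start assembly were also lower, with log2 fold changes of -1.21 in PRPL27, -1.14 in PRPL3, -0.97 in PRPL4 and -0.95 in PRPL13. For the proteins around the site where translation factors bind, the log2 fold changes were -1.18 in PRPL6, -0.73 in PRPL10 and -0.77 in PRPL11, all called lower. Among proteins that in bacteria bind the small ribosomal RNA of the large subunit, PRPL18 was lower (-0.80) and PRPL5 was not called (-0.58). PRPL1, on the stalk from which spent tRNA leaves, was lower by less than most (-0.63). The remaining large-subunit genes that were called lower were PRPL35 (-0.99), PRPL21 (-0.98), PRPL17 (-0.77), PRPL24 (-0.74), PRPL9 (-0.74), PRPL31 (-0.73) and PRPL28 (-0.63).

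The weakest calls and the genes that missed the threshold lay close together. PRPL28 had 4.23, 3.94, 4.43 and 4.94 CPM in Dark-RNA1 to Dark-RNA4, against 6.36, 6.41, 8.17 and 6.09 CPM in Light-RNA1 to Light-RNA4. The exons of PRPL28 overlap those of a gene on the opposite strand over 68.0% of their length, and that gene was at 0.0637 CPM in dark-grown and 0.0696 CPM in light-grown cells. The groups did not overlap, and the adjusted p was 0.0412 (log2 fold change -0.63, SE 0.16, edgeR). PRPL11 had 13.8, 20.0, 15.5 and 15.9 CPM in Dark-RNA1 to Dark-RNA4, against 30.1, 31.6, 31.3 and 18.1 CPM in Light-RNA1 to Light-RNA4. Here Dark-RNA2 lay above Light-RNA4, so the groups overlapped, and the adjusted p from edgeR was 0.0409 (SE 0.20). Leaving out any 1 library except Dark-RNA2 or Light-RNA4 ended the call of PRPL11, with adjusted p-values up to 0.123, and for PRPL28 leaving out any except Light-RNA4 did so, with values up to 0.126.

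PRPL5 had 13.9, 24.9, 17.6 and 15.7 CPM in Dark-RNA1 to Dark-RNA4, against 26.3, 33.0, 30.7 and 17.9 CPM in Light-RNA1 to Light-RNA4. Dark-RNA2 was above Light-RNA4 in this gene as well, and the log2 fold change of -0.58 (SE 0.23) was not called, with an adjusted p of 0.163 in edgeR. It was called without Dark-RNA2 (adjusted p = 0.0468) and without Light-RNA4 (adjusted p = 0.0479). PRPL34 had 9.75, 12.7, 10.6 and 10.5 CPM in Dark-RNA1 to Dark-RNA4, against 15.4, 15.5, 17.2 and 11.2 CPM in Light-RNA1 to Light-RNA4. It too overlapped through Dark-RNA2 and Light-RNA4, with a log2 fold change of -0.45 (SE 0.16, edgeR adjusted p = 0.111, and 0.0263 without Light-RNA4).

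**Figure D2:**
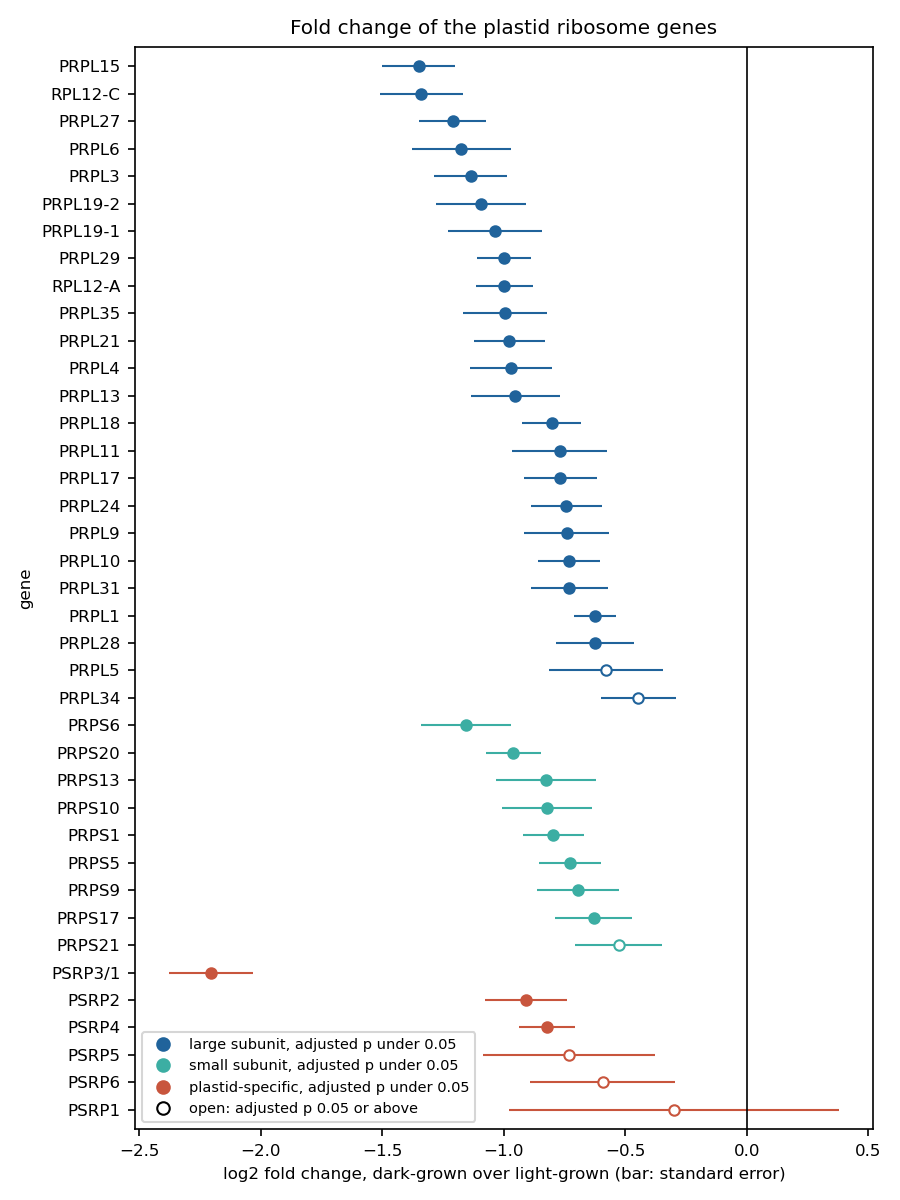
Log2 fold change, dark-grown over light-grown, of each of the 39 genes with its standard error, ordered within the large subunit (blue), the small subunit (green) and the plastid-specific proteins (red). Filled points passed an adjusted p of 0.05 and open points did not. All points lie below 0, PSRP3/1 lies farthest from 0 at -2.21, and the bar of PSRP1 crosses 0.

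The proteins of the flexible stalk, which in bacteria draws elongation factors to the ribosome, are encoded by neighbouring copies on chromosome 3. RPL12-A (chr3:10318455-10319920, forward strand) and RPL12-C (chr3:10324788-10325746, forward strand) have coding sequences that are 93.4% identical, with a longest identical run of 255 bases. Of the 50-base windows of their exons, 18.1% in RPL12-A and 24.7% in RPL12-C occur unchanged in the other copy, so the division of reads between them is uncertain. RPL12-A had 16.0, 13.1, 15.0 and 15.1 CPM in Dark-RNA1 to Dark-RNA4, against 28.6, 30.6, 33.8 and 25.3 CPM in Light-RNA1 to Light-RNA4. RPL12-C had 14.7, 16.6, 17.5 and 19.6 CPM in Dark-RNA1 to Dark-RNA4, against 46.3, 46.4, 50.6 and 30.0 CPM in Light-RNA1 to Light-RNA4. Both fell, without overlap, and the log2 fold change was -0.999 in RPL12-A (SE 0.12) and -1.34 in RPL12-C (SE 0.17).

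The ratio of RPL12-C to RPL12-A within a library, as a log2 value, was 0.20 ± 0.22 in dark-grown and 0.52 ± 0.19 in light-grown cells (SD, n = 4 each). This difference of -0.32 did not pass an exact two-sided permutation test (p = 0.0857, 0.129 after adjustment over the 3 pairs of copies compared, which were chosen with their values known). The copy between them, RPL12-B (chr3:10323354-10323950, forward strand), was at 0 counts in all 8 libraries. A count of 3, the floor used here, corresponds to between 0.0779 and 0.159 CPM in these libraries.

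The L19 genes encode a protein that in bacteria bridges the subunits, and their coding sequences are 82.6% identical with no shared exon window. PRPL19-1 (AT5G47190) had 16.6, 14.6, 18.05 and 14.0 CPM in Dark-RNA1 to Dark-RNA4, against 35.3, 38.3, 35.5 and 20.7 CPM in Light-RNA1 to Light-RNA4. PRPL19-2 (AT4G17560) had 6.35, 8.49, 7.19 and 6.13 CPM in Dark-RNA1 to Dark-RNA4, against 14.8, 17.4, 17.2 and 10.8 CPM in Light-RNA1 to Light-RNA4. Both copies fell without overlap, with log2 fold changes of -1.04 (SE 0.19) and -1.10 (SE 0.18). Their log2 ratio was 1.12 ± 0.26 in dark-grown and 1.07 ± 0.13 in light-grown cells (SD, n = 4 each), a difference of 0.0476 (exact two-sided permutation test, p = 0.771).

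In the small subunit, 8 of 9 genes were lower in the dark, with a median log2 fold change of -0.80. PRPS1, which binds messenger RNA in bacteria and has the longest coding sequence of these 9 genes, had 63.2, 71.4, 54.9 and 53.1 CPM in Dark-RNA1 to Dark-RNA4, against 112, 101, 117 and 91.3 CPM in Light-RNA1 to Light-RNA4. The groups did not overlap, and the log2 fold change was -0.80 (SE 0.12, edgeR adjusted p = 0.00508). PRPS6, a protein of the platform in bacteria, had the largest change of the subunit at -1.16, followed by PRPS20 at -0.96. The head proteins PRPS13, PRPS10 and PRPS9 changed by -0.83, -0.82 and -0.70, and PRPS5 by -0.73, all called lower.

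PRPS17, an early binder of ribosomal RNA in bacteria, had 23.96, 34.1, 27.9 and 27.9 CPM in Dark-RNA1 to Dark-RNA4, against 46.02, 49.4, 48.2 and 32.6 CPM in Light-RNA1 to Light-RNA4. Dark-RNA2 lay above Light-RNA4, and the adjusted p was 0.0388 (log2 fold change -0.63, SE 0.16, edgeR). This call too ended without any 1 library other than Dark-RNA2 or Light-RNA4, with adjusted p-values up to 0.119. Its exons overlap those of another gene on the opposite strand over 93.9% of their length, but that gene is not in the count table, so its level is unknown. A further opposite-strand gene, over 27.9% of their length, was at 0.170 CPM in dark-grown and 0.429 CPM in light-grown cells. Whether the authors' counting used strand is not given in the sources used here. Exons of 15 of the 39 genes overlap an opposite-strand gene, and reads of such partners cannot be told apart without strand. Among them is PRPL10, over 51.4% of its exon length, by a gene that is also not in the count table. Another partner of PRPL10, over 17.7%, was at 63.7 CPM in dark-grown and 69.9 CPM in light-grown cells, above PRPL10 itself. Partners also lay above the member, among others, in PRPS13 (26.5% of exon length, 29.4 CPM dark, 27.5 CPM light) and PSRP1 (12.2%, 72.1 and 67.5 CPM). The same held in PSRP5 (10.5%, 26.0 CPM dark and 25.7 CPM light). The part of such reads in the levels was not tested. PRPS21 (chr3:10017321-10019442, forward strand) had 27.5, 27.3, 19.3 and 20.7 CPM in Dark-RNA1 to Dark-RNA4, against 35.1, 40.7, 35.8 and 25.0 CPM in Light-RNA1 to Light-RNA4. Both Dark-RNA1 and Dark-RNA2 lay above Light-RNA4, and the change of -0.53 (SE 0.18) was not called, with an adjusted p of 0.105 in edgeR and of 0.0291 without Light-RNA4. Of its exon windows of 50 bases, 8.31% occur elsewhere in the genome.

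The PRPS genes were compared with the large-subunit genes by the summed level of the 9 small-subunit genes over that of the 24 large-subunit genes in each library. The plastid-specific genes are in neither sum, although several encode proteins of the small or the large subunit. Among those left out is the gene that fell most, which belongs to the small subunit. The ratio therefore does not give the balance of whole subunits. This ratio was 0.459, 0.478, 0.403 and 0.403 in Dark-RNA1 to Dark-RNA4, against 0.391, 0.374, 0.377 and 0.400 in Light-RNA1 to Light-RNA4. For the genes in these sums, all dark-grown libraries lay above the light-grown libraries, but Dark-RNA3 and Dark-RNA4 only just. This order depends on the genes left out. PSRP3/1 had 12.2 and 15.6 CPM in Dark-RNA3 and Dark-RNA4, beside small-subunit sums of 174 and 175 CPM. In Light-RNA1 to Light-RNA4 it had 58.4, 64.4, 81.6 and 47.2 CPM, beside sums of 330, 344, 353 and 250 CPM. With PSRP3/1 added to the small-subunit sums, Dark-RNA3 and Dark-RNA4 no longer lie above the light-grown libraries. Without the plastid-specific genes, the mean of the ratio was 0.436 ± 0.0384 in dark-grown and 0.386 ± 0.0123 in light-grown cells (SD, n = 4 each).

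**Figure D3:**
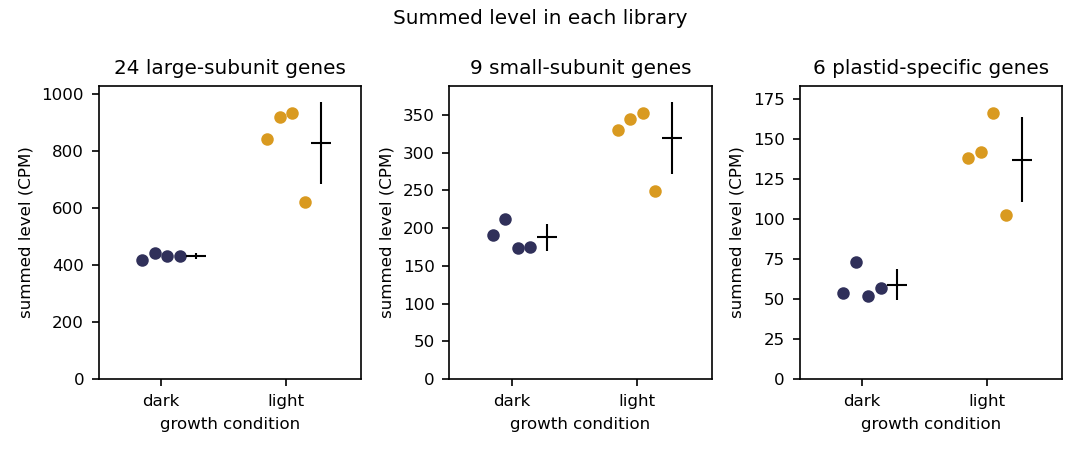
Summed level in CPM of the large-subunit, small-subunit and plastid-specific genes in each library, dark-grown left and light-grown right, with the mean and SD of 4 libraries beside the points. The dark-grown sums lie below the light-grown sums in all 3 panels, and the lowest light-grown point in each panel is Light-RNA4.

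The plastid-specific proteins, which are not among the core proteins of the bacterial ribosome, differed most among themselves. PSRP3/1 (AT1G68590, chr1:25757404-25758411, reverse strand) encodes a protein of the small subunit that cyanobacteria also have. It had 12.7, 14.0, 12.2 and 15.6 CPM in Dark-RNA1 to Dark-RNA4, against 58.4, 64.4, 81.6 and 47.2 CPM in Light-RNA1 to Light-RNA4. The groups lay far apart, and the dark-grown mean was 21.7% of the light-grown mean. The log2 fold change was -2.21 (SE 0.17, edgeR adjusted p = 0.000233), and it stayed between -2.32 and -2.06 over all 17 alternative settings. Over 17.2% of its exon length it overlaps AT1G68585 on the opposite strand, which had 11.9 CPM in dark-grown and 6.93 CPM in light-grown cells.

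The second copy was not called. PSRP3/2 (AT5G15760), which is not among the 39 genes and whose coding sequence is 69.7% identical to that of PSRP3/1, had 4.26, 5.17, 6.15 and 4.80 CPM in Dark-RNA1 to Dark-RNA4, against 5.27, 6.30, 5.88 and 5.67 CPM in Light-RNA1 to Light-RNA4. The groups overlapped, and the log2 fold change was -0.18 (SE 0.16, edgeR adjusted p = 0.548). The log2 ratio of PSRP3/1 to PSRP3/2 was 1.34 ± 0.29 in dark-grown and 3.31 ± 0.30 in light-grown cells (SD, n = 4 each), a difference of -1.97. The exact two-sided permutation test of this ratio gave p = 0.0286, the smallest that 4 libraries against 4 allow, and 0.0857 after adjustment over the 3 pairs.

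PSRP2, which carries RNA-binding domains, had 9.60, 14.2, 9.73 and 10.4 CPM in Dark-RNA1 to Dark-RNA4, against 20.8, 18.4, 25.1 and 18.2 CPM in Light-RNA1 to Light-RNA4. PSRP4, a small protein of the small subunit, had 10.3, 10.999, 9.20 and 9.28 CPM in Dark-RNA1 to Dark-RNA4, against 19.3, 18.3, 17.3 and 15.4 CPM in Light-RNA1 to Light-RNA4. Both fell without overlap, with log2 fold changes of -0.91 (SE 0.17, edgeR adjusted p = 0.0113) and -0.82 (SE 0.12, adjusted p = 0.00315).

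The other plastid-specific genes varied between libraries and were not called. PSRP1, the plastid relative of the bacterial factors that silence idle ribosomes, had 7.59, 1.17, 3.52 and 3.41 CPM in Dark-RNA1 to Dark-RNA4, against 5.84, 4.48, 8.09 and 0.848 CPM in Light-RNA1 to Light-RNA4. The spread within each group was wider than the difference between them, since Dark-RNA1 and Light-RNA3 were highest and Light-RNA4 (16 counts) and Dark-RNA2 (36 counts) were lowest. Its log2 fold change was -0.30 (SE 0.68, edgeR adjusted p = 0.839), and it turned to 0.0066 without Dark-RNA2 and 0.061 without Light-RNA3. PSRP5, a protein of the large subunit, had 1.62, 1.56, 1.82 and 1.99 CPM in Dark-RNA1 to Dark-RNA4, against 2.83, 3.86, 3.68 and 1.22 CPM in Light-RNA1 to Light-RNA4. Light-RNA4 lay below every dark-grown library, whereas the other light-grown libraries lay above all of them, and the change of -0.73 (SE 0.35) had an adjusted p of 0.241 in edgeR and of 0.0312 without Light-RNA4.

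PSRP6, also of the large subunit, had 12.2, 31.5, 15.6 and 16.1 CPM in Dark-RNA1 to Dark-RNA4, against 30.8, 32.4, 30.8 and 19.8 CPM in Light-RNA1 to Light-RNA4. Dark-RNA2 reached the level of the light-grown libraries while the other dark-grown libraries lay below all of them, and the change was -0.59 (SE 0.30, edgeR adjusted p = 0.264). Without Dark-RNA2 the adjusted p was 0.0168.

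**Figure D4:**
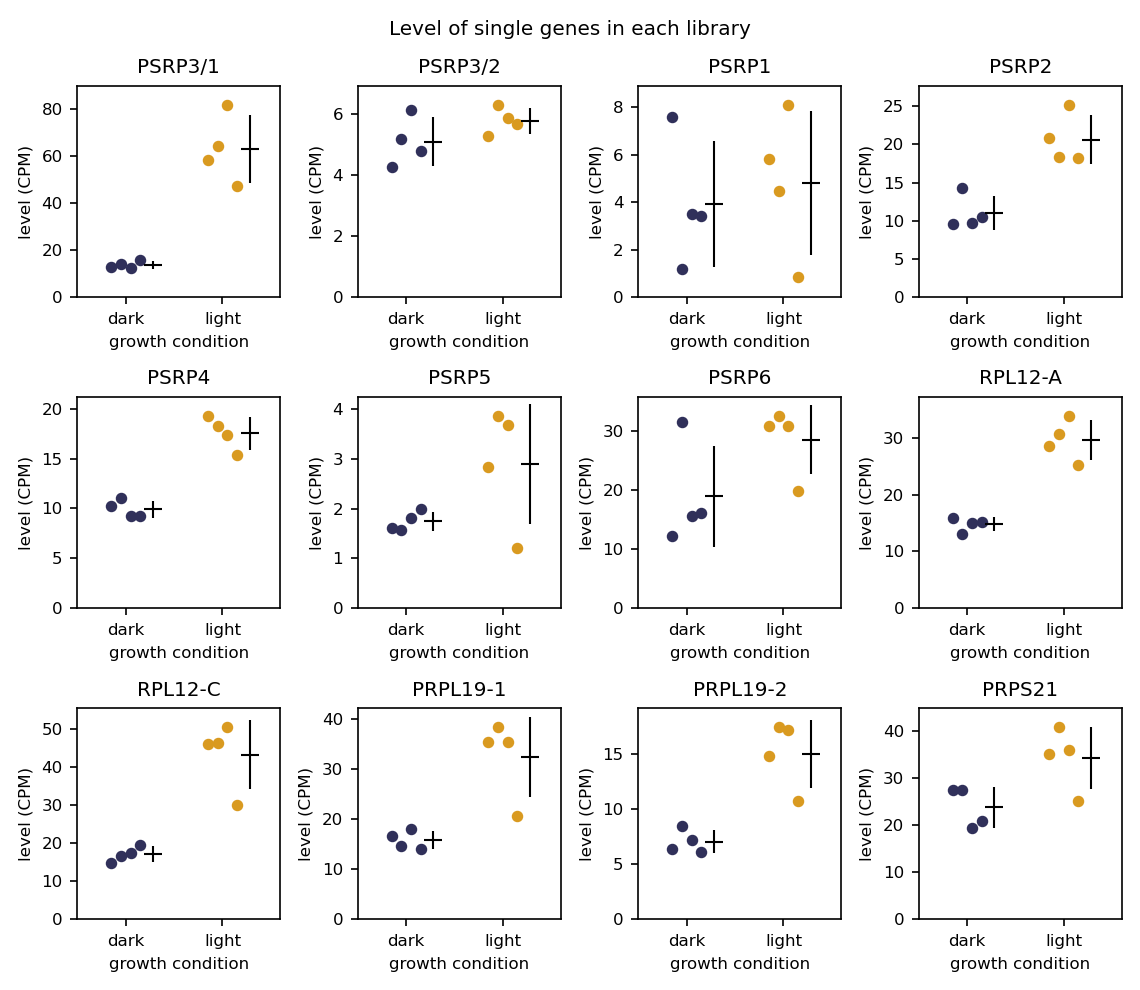
Level in CPM of the plastid-specific genes, of PSRP3/2, of the RPL12 and L19 copies and of PRPS21 in each library, dark-grown left and light-grown right, with the mean and SD of 4 libraries. PSRP3/1 falls to 13.6 CPM in dark-grown cells, against 62.9 CPM in light-grown cells, while PSRP3/2 overlaps, as do PSRP1, PSRP5, PSRP6 and PRPS21.

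Levels of different genes were compared per kilobase of annotated exon (CPM/kb). They spanned a wide range, from 2.52 to 79.9 CPM/kb in dark-grown and from 3.71 to 160 CPM/kb in light-grown cells, with medians of 13.3 and 23.8 CPM/kb. PRPL29 was highest in both conditions, at 79.9 ± 3.51 CPM/kb in dark-grown and 159.8 ± 21.7 CPM/kb in light-grown cells (SD, n = 4 each). PSRP3/1 was the second highest in light-grown cells, at 67.5 ± 15.4 CPM/kb (SD, n = 4), but only number 18 of 39 in dark-grown cells, at 14.6 ± 1.61 CPM/kb (SD, n = 4). In light-grown cells it did not differ beyond the spread from PRPS1 at 66.3 ± 7.31 CPM/kb, the third, or PRPS17 at 62.0 ± 10.9 CPM/kb (SD, n = 4 each).

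The lowest in light-grown cells were PSRP1 at 3.02 ± 2.06 CPM/kb in dark-grown and 3.71 ± 2.34 CPM/kb in light-grown cells, PSRP5 at 2.52 ± 0.281 CPM/kb in dark-grown and 4.18 ± 1.74 CPM/kb in light-grown cells and PRPL28 at 5.85 ± 0.562 CPM/kb in dark-grown and 9.03 ± 1.27 CPM/kb in light-grown cells (SD, n = 4 each). In dark-grown cells PRPL19-2, at 5.73 ± 0.871 CPM/kb (SD, n = 4), lay between PSRP1 and PRPL28, from which it did not differ beyond the spread. PSRP1 and PSRP5 did not differ beyond their spread in either condition. With coding length in place of exon length, PRPL29 and PSRP3/1 remained the highest in light-grown cells and these 3 the lowest.

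Other genes of plastid gene expression were read from the same fit. Of 12 plastid translation factors, 9 were lower in the dark, 0 were higher and the median log2 fold change was -0.76. The lowest values were -1.15 in the elongation factor EF-G (SCO1) and -1.14 in the initiation factor IF2 (FUG1), and the highest were -0.34 in LEPA and -0.25 in IF1, which was not called (edgeR adjusted p = 0.506). Of 12 proteins associated with the plastid RNA polymerase, 8 were lower, with a median of -0.67. Here PAP9 (-1.30) and PAP8 (-1.28) changed most, and PAP5 (-0.43, adjusted p = 0.159) and PAP3 (-0.31, edgeR adjusted p = 0.205) were not called.

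Of 13 genes for factors that assemble the plastid ribosome or process its RNA, 1 was called lower, and the median was -0.31. That gene was the ribonuclease RNJ (-0.53, edgeR adjusted p = 0.0192), named after its value was seen. Assembly factors RBF1 (-0.90, adjusted p = 0.199) and RAP (-0.64, adjusted p = 0.0579) had the lowest values, and the helicase RH39 (-0.12) and the GTPase EngA (-0.11) the highest, none of them called in edgeR. By DESeq2, 5 of the 13 were lower.

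Ribosomal proteins of other compartments were not called lower. The list of cytosolic ribosomal proteins was drawn from reference symbols and descriptions and shortened after its values were seen. It may therefore hold genes that are not cytosolic ribosomal proteins. Of its 99 genes tested, 0 were called in edgeR, 2 had an unadjusted p under 0.05 and DESeq2 called 1, which was higher. Their median log2 fold change was 0.00365. Of 8 mitochondrial ones tested, 0 were called in edgeR or DESeq2, 0 had an unadjusted p under 0.05, and the median was -0.02. In contrast, all 39 photosynthesis genes tested were lower, with a median of -4.81. Of 10 proliferation genes, 0 were called in edgeR, 5 had an unadjusted p under 0.05 and DESeq2 called 1 lower, and the median was -0.36, with the lowest values in KNOLLE (-0.99) and CYCB1;1 (-0.70) and the highest in CYCD3;1 (0.54) and TSO2 (0.03). These values are given beside the results, and their part in them was not tested. All 26 identifiers of plastid-encoded ribosomal proteins were listed at 0 in every library, so the plastid-encoded part of the ribosome could not be compared.

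**Figure D5:**
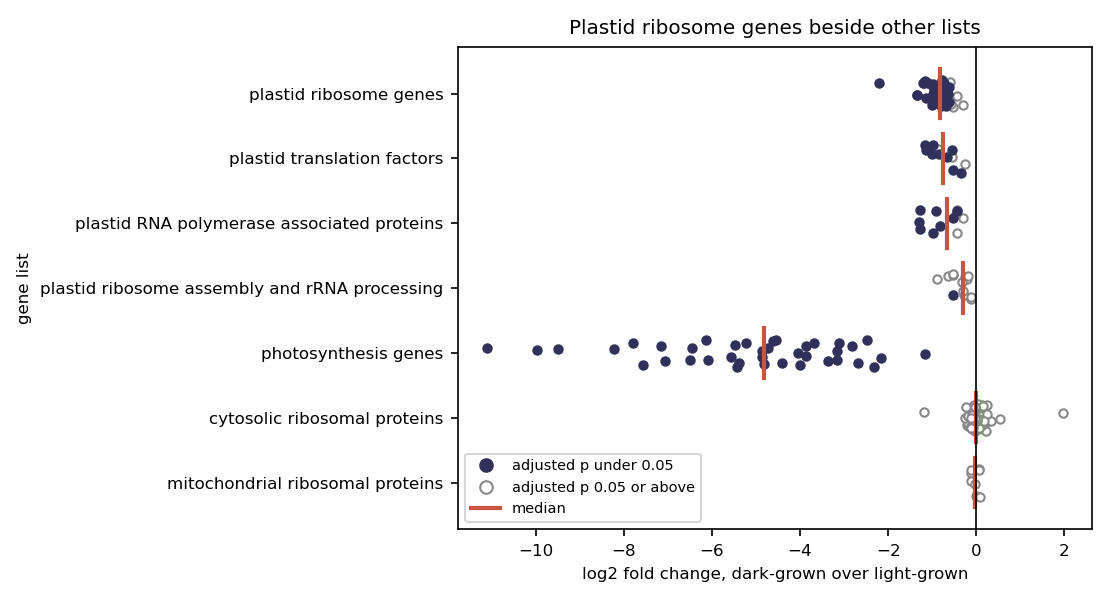
Log2 fold change, dark-grown over light-grown, of single genes in the list of plastid ribosome genes and in 6 other lists, with the median of each list in red. Filled points passed an adjusted p of 0.05. The median is -0.82 for plastid ribosome genes, -4.81 for photosynthesis genes and close to 0 for cytosolic and mitochondrial ribosomal proteins.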

How the data were processed

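The 8 RNAseq libraries were analysed. The series also has 8 MNase-seq samples, not used here. Reads had been aligned by Tophat2 to TAIR10 and assigned to Araport11 genes by HTSeq, and the deposited values are these raw counts per gene. Tool versions, the counting mode and the use of strand are not given in the sources used here. A deposited table of the authors' own edgeR fold changes and p-values was not used. Library totals ran from 29916585 to 32688689 counts in dark-grown and from 18363149 to 37813411 in light-grown libraries. Limits set by counting cover counting error only.

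For tests, edgeR 4.0.16 (R 4.3.3) was run with TMM normalisation, filterByExpr (minimum count 10, minimum total 15), a robust quasi-likelihood fit and p-values adjusted by Benjamini-Hochberg for 19129 genes, at a threshold of 0.05. The fit was also run on counts simulated from the mean levels and dispersions of these data, with known changes added. Such a run checks the code only. It cannot show how the fit handles shared cultures or an outlying library. The standard error is the absolute log2 fold change over the root of the F statistic. Ratios of copies used log2 of CPM plus 0.5. Alternatives were other scalings, other filters, DESeq2 1.42.0, other edgeR tests, a replicate block, each library left out, coding length and upstream bases only. Leaving out libraries for ratios of copies was added after seeing the data. The members, the gene lists and the rule for naming genes were chosen with earlier results of these data known. By that rule, every member is named with its change, and values per library are given for the 3 lowest and 3 highest changes, copies of one protein, the extremes per kilobase, PSRP genes, PRPS1, PRPS21 and the 3 genes on either side of the threshold. From the other lists the 2 lowest and the 2 highest are named. The list of cytosolic proteins leaves out families that also hold organelle proteins, a choice made after its values were seen. Names, lengths and sequence came from RefSeq TAIR10.1, in which all 39 genes matched.

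Between libraries of 1 group, chi-square per gene was 23.7 to 132, where 1 is sampling noise, so none was the same library sequenced again. Whether libraries share a culture cannot be told from this value. Python 3.11.15, pandas 2.3.3, scipy 1.17.1 and matplotlib 3.10.9 were used.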

Additional observations from a re-analysis of the deposited data

Results flagged for a closer look

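In 112 groups of 4 libraries, made from 57 genes in 2 growth conditions, the highest or lowest library was compared with the other 3. If the groups were independent, chance alone would mark about 1 in 20 of them, or 5.6. The genes share the same libraries, so the groups are not independent and 5.6 does not measure chance here. In 9 groups 1 library lay far from the rest. Light-RNA4 was the low library in 5 of them: PRPL11 (18.1 CPM, with the other light-grown libraries between 30.1 and 31.6), PRPL17 (15.2, others 21.9 to 22.0), PRPL19-1 (20.7, others 35.3 to 38.3), PRPS9 (11.2, others 16.4 to 16.6) and PSRP6 (19.8, others 30.8 to 32.4). Light-RNA3 was high in PRPL28, at 8.17 CPM with the others between 6.09 and 6.41. Dark-RNA4 was high in PRPL10, at 12.7 CPM with the others at 11.6. Dark-RNA1 was high in the assembly factor RBF1, at 21.4 CPM with the other dark-grown libraries between 6.54 and 7.16, and low in PAP5, at 15.3 CPM with the others between 22.5 and 23.1.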

How the results depend on the processing

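Over the 17 alternative settings, 23 of the 39 plastid ribosome genes were called lower in the dark in every one, and PSRP1 in none. The number called lower was 33 with RLE or upper-quartile scaling, library totals alone, a filter of 1 CPM in 4 libraries, DESeq2, the non-robust fit and the likelihood ratio test, 32 without a filter, and 23 to 37 with each library left out. The 10 genes that lost their call at least once were PRPL9, PRPL11, PRPL17, PRPL24, PRPL28, PRPL31, PRPS9, PRPS10, PRPS13 and PRPS17, and those fits had fewer libraries except for PRPL28 without a filter (adjusted p = 0.0582 in edgeR) and the replicate block. The median log2 fold change of the genes ran from -0.96 to -0.76 with each library left out. Among the 39 genes only PSRP1 changed sign. Its log2 fold change ran from -0.84 without Dark-RNA1 to 0.0066 without Dark-RNA2 and 0.061 without Light-RNA3. With each library left out, the difference in log2 ratio ran from -2.09 to -1.84 for PSRP3/1 over PSRP3/2, from -0.42 to -0.22 for RPL12-C over RPL12-A and from -0.02 to 0.17 for PRPL19-1 over PRPL19-2.

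Same-numbered libraries did not all deviate together, with correlations of -0.16, 0.59, -0.02 and 0.21 for replicates 1 to 4. Not every library correlated best with its own number. With so few libraries, these correlations cannot settle whether the numbers pair the samples, and the main fit did not pair them. With the replicate number as a block, 30 of the genes were called lower, with a median of -0.80, and PRPL9, PRPL28 and PRPS13 lost their call. Over all 19129 genes tested, 1358 were called lower with this block.

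Over all genes, 689 to 1669 were called lower and 273 to 1204 higher with each library left out. DESeq2 called 1776 lower and 1421 higher, against 1207 and 705 in the main edgeR fit. Coding length raised the highest light-grown level to 255 CPM/kb, and the bases before the start held an I-box in 10 promoters, against 19 for the whole window. The lowest counts of a gene in 1 library were 16 in PSRP1 and 23 in PSRP5.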
